A study of Zea mays with 6 samples.

Results

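The genes pr5, prp4 and chn1 encode 3 kinds of plant defence protein, and their transcript levels were measured in the mesocotyl of maize seedlings. The mesocotyl is the stem segment that lifts the shoot of a grass seedling towards the soil surface. The genes were chosen from earlier results of these arrays because their signals were lower after treatment than in control, so their differences from control are given as a description, with no test. The platform annotation gives each of them 1 probe set, so the genes stand for 3 of the 17621 probe sets of the array, all of which passed the filter on dim signals: pr5 (LOC542720) is Zm.6659.1.A1_at, prp4 (LOC542352) is Zm.15280.1.A1_s_at and chn1 (LOC542525) is Zm.1085.1.A1_a_at. In Affymetrix naming the suffix _s_at marks a probe set that can detect transcripts of more than 1 gene, so the prp4 signal may hold other transcripts.

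Plants of the inbred line 3681-4 were sown 20 cm deep, kept in the dark and sampled 10 days after sowing. They had received the gibberellin GA3, or UCZ, described in the series as an inhibitor of gibberellin synthesis, or were controls. Each group had 2 biological replicates on 1 array each, 6 arrays in all, and this number limits the precision of every value. No source used here states the doses, the times of treatment or the solvent.

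Pathogenesis-related (PR) proteins accumulate in plants after infection, wounding or hormone signals such as salicylate, jasmonate and ethylene, and many are secreted into the cell wall space. Members of the PR-5 family, to which pr5 belongs by name, resemble the sweet protein thaumatin, and several of them make fungal membranes leaky. Members of the PR-1 family, the synonym of prp4, are small secreted proteins widely used as markers of salicylate-dependent defence. Chitinases, the class of chn1, cut chitin, a polymer of fungal cell walls and insect cuticles. Many PR genes are also active in healthy organs, at levels that change with development.

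The array medians were 201.4 and 195.6 in GA3, 189 and 183.1 in UCZ, and 199.6 and 203.2 in control. Probe sets for bacterial poly-A transcripts, spiked into the RNA in this system, were on average 0.616 (replicate 1) and 0.665 (replicate 2) higher on the log2 scale in UCZ than in control; for GA3 the same differences were −0.0225 and −0.235. Scaling the arrays to these controls moved the median log2 difference of all probe sets to −0.667 for UCZ minus control and 0.809 for GA3 minus UCZ, against −0.0263 and 0.0402 in the deposited scaling, to which the values below refer. Genes of leaf photosynthesis, taken as markers of another tissue, were bright on every array (10 genes, none at 0, signals between 710.4 and 12510). Their summed signal was 43758 and 45711 in GA3, 57402 and 58832 in UCZ, and 57056 and 59723 in control. For the root gene pht1 the signals were 788 and 675 in GA3, 768 and 792 in UCZ, and 887 and 902 in control, and for 2 reproductive genes (m19 and M2) the sums were 500.1 and 451.3, 424.5 and 466.9, and 571 and 580.3 in the same order of groups. The sums of 6 kernel genes were 259 and 233 in GA3, 473 and 422 in UCZ, and 235 and 195 in control. Of the kernel genes only betl4 and gz27 passed the filter, and betl4 carried most of the difference, with means of 279 in UCZ and 75.3 in control; the other 4 had means under 10 in UCZ and in control and were lower in UCZ. The kernel sum was highest on the UCZ arrays and the leaf sum lowest on the GA3 arrays, and the part of either in the results below was not tested. No gene was taken as a marker that defines the mesocotyl.

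The thaumatin-like gene pr5 had signals of 277 and 339 in GA3, 594.2 and 555.8 in UCZ, and 2050 and 1731 in control. The 3 groups did not overlap, with control the highest, UCZ in between and GA3 the lowest. Means were 308 ± 43.8 in GA3, 575 ± 27.1 in UCZ and 1891 ± 225 in control (SD, n = 2 each), so the GA3 mean was 16.3% and the UCZ mean 30.4% of the control mean. On the log2(signal + 16) scale used for all differences, GA3 minus control was −2.56 (SE 0.153) and UCZ minus control was −1.69 (SE 0.153). The 2 differences share the control arrays. Among the 10573 probe sets kept, the GA3 difference of pr5 was the 5th lowest and its UCZ difference the 72nd lowest.

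The PR-1 gene prp4 was the dimmest of the 3 probe sets. Its signals were 109 and 86.1 in GA3, 63.6 and 53.3 in UCZ, and 400.4 and 282.8 in control. The groups again did not overlap, but here UCZ was the lowest and GA3 lay in between. Means were 97.5 ± 16.2 in GA3, 58.4 ± 7.28 in UCZ and 341.6 ± 83.2 in control (SD, n = 2 each), or 28.6% of control in GA3 and 17.1% in UCZ. GA3 minus control was −1.64 (SE 0.211) and UCZ minus control was −2.25 (SE 0.211), which ranked 21st and 26th from the lowest of all probe sets kept. Because the signal is low, the amount added before taking logarithms matters: the UCZ difference was −2.51 when 1 was added and −1.71 when 64 was added.

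The chitinase gene chn1 was bright in all groups, at 1694 and 1909 in GA3, 2262 and 2280 in UCZ, and 4143 and 3997 in control. The order was that of pr5, with control above UCZ and UCZ above GA3, and no overlap. Means were 1802 ± 153 in GA3, 2271 ± 12.6 in UCZ and 4070 ± 103 in control (SD, n = 2 each), so 44.3% of the control signal was left in GA3 and 55.8% in UCZ. GA3 minus control was −1.17 (SE 0.11) and UCZ minus control was −0.84 (SE 0.11), the smallest differences of the 3 genes. They ranked 62nd and 483rd from the lowest of all probe sets kept.

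**Figure D1:**
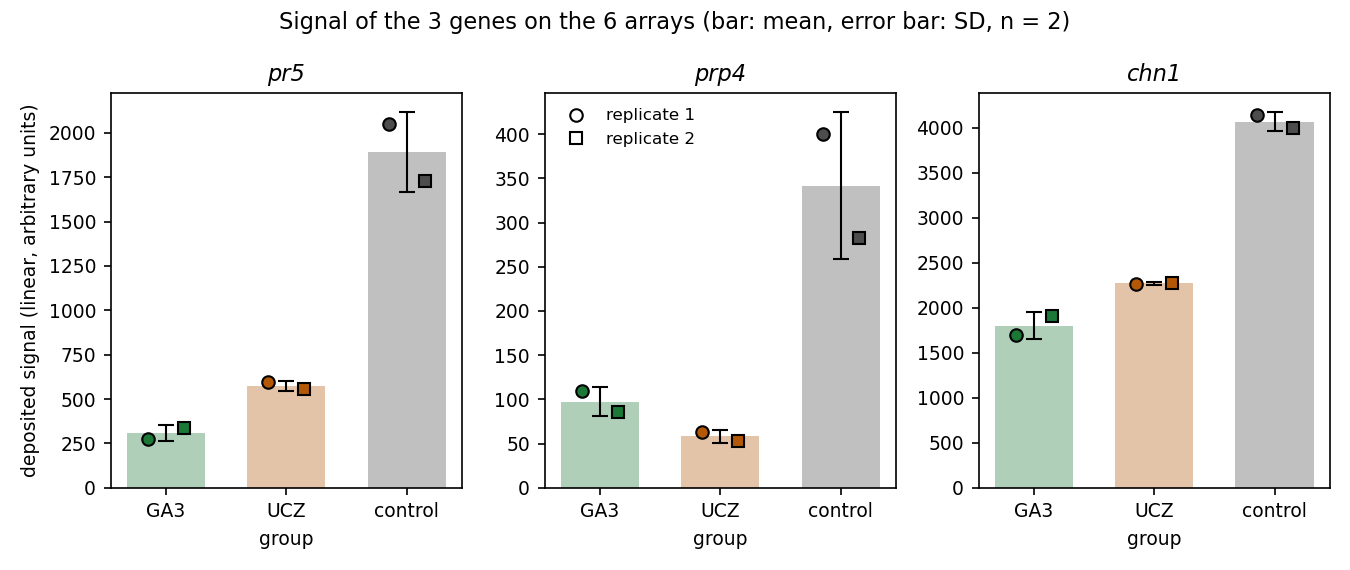
Deposited signal (linear scale, arbitrary units) of pr5, prp4 and chn1 in GA3, UCZ and control. Bars are means, error bars are SD (n = 2) and points are arrays; control is highest for all 3 genes, GA3 is lowest for pr5 and chn1, and UCZ is lowest for prp4.

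All 3 genes were lower on both GA3 arrays than on either control array, a pattern held by 18.5% of the probe sets kept, and all 3 were lower on both UCZ arrays than on either control array, as were 32.7%. Nothing is read from these counts, since the genes were chosen for them. In bulk tissue, fewer cells of a type and less RNA per cell cannot be told apart. Within replicate 1 and replicate 2, GA3 minus control was −2.82 and −2.30 for pr5, −1.74 and −1.55 for prp4, and −1.28 and −1.06 for chn1. UCZ minus control was −1.76 and −1.61 for pr5, −2.39 and −2.11 for prp4, and −0.87 and −0.81 for chn1. For all 3 genes and both treatments the difference was larger in replicate 1. In control, prp4 was lower in replicate 2 than in replicate 1 by a log2 difference of −0.48, and pr5 by −0.24, against a median absolute difference of 0.158 over all probe sets kept. The probe sets of actin, whose 3′/5′ signal ratio measures RNA integrity, gave ratios of 4.64 and 3.40 in GA3, 4.14 and 3.11 in UCZ, and 3.57 and 2.76 in control. The same ratio for GAPDH ran the other way between treated and control arrays, at 2.08 and 1.65 in GA3, 1.79 and 1.56 in UCZ, and 2.19 and 1.95 in control. The part of RNA integrity in these differences was not tested.

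Which treatment lowered each gene more was examined by setting GA3 directly against UCZ. This contrast shares its treated arrays with the contrasts from which the genes were chosen. The question was also set with earlier results of these arrays known, so the p-values below are no independent test of the order. The model was fitted to all probe sets kept with limma, and p-values were adjusted by Benjamini-Hochberg over all of them. GA3 lowered pr5 more: GA3 minus UCZ was −0.87 (SE 0.153, 95% interval −1.23 to −0.52, adjusted p = 0.0108), lower in both replicates (−1.06 and −0.69), which makes UCZ 1.83-fold higher. Without GA3 replicate 1 the difference of pr5 was −0.735 (adjusted p = 0.0571) and without UCZ replicate 1 it was −0.826 (adjusted p = 0.0569), so the call was lost while the size stayed similar. Without any 1 of the other 4 arrays the adjusted p was 0.0177 to 0.0478. For chn1 the difference had the same sign, −0.33 (SE 0.11, 95% interval −0.59 to −0.08), but missed the threshold (adjusted p = 0.0876). For prp4 it had the opposite sign, 0.61 (SE 0.211, 95% interval 0.11 to 1.1), with GA3 the higher in both replicates (0.65 and 0.56), and also missed the threshold (adjusted p = 0.104). The mean log2 of prp4 in GA3 and in UCZ lay below 6.96, the lowest mean over all arrays that the filter kept. Its interval and p-values in this contrast, here and below, thus compare 2 dim groups and are given as a description. Without the filter the limma fit gave adjusted p = 0.174.

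Thus 1 of the 3 genes passed in GA3 against UCZ, where 13.9% of all probe sets kept did. With the replicate number as a block all 3 passed, with adjusted p of 0.000223 for pr5, 0.0106 for prp4 and 0.0214 for chn1, where 30.9% of probe sets did. GA3 and UCZ arrays did not overlap for any of the 3 genes, nor for 57.5% of all probe sets kept.

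The answer for pr5 and chn1 depended on the scaling. Under poly-A control scaling GA3 minus UCZ was −0.10 for pr5 (adjusted p = 0.753) and turned to 0.44 for chn1 (adjusted p = 0.229), while for prp4 it grew to 1.37 (adjusted p = 0.000788). Against control, all 3 genes were lower in both treatments under each scaling tried: with poly-A control scaling GA3 minus control was −2.43, −1.51 and −1.04 and UCZ minus control was −2.33, −2.89 and −1.48 for pr5, prp4 and chn1. With median centring and quantile normalization pr5 passed in GA3 against UCZ (adjusted p = 0.00844 and 0.00937) and the other 2 genes did not. The leaf photosynthesis genes were also lower in GA3: both GA3 arrays were below all other arrays for 8 of the 10 genes, against 7.87% of all probe sets kept. In GA3 against UCZ 5 of the 10 passed, all lower, where 6.33% of probe sets passed as lower, and 7 with the block, where 13.9% did. In GA3 against control 2 of the 10 passed, both lower, where 0.842% passed as lower, and 7 with the block, where 5.1% did. The part of these genes in the results for the 3 chosen genes was not tested.

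**Figure D2:**
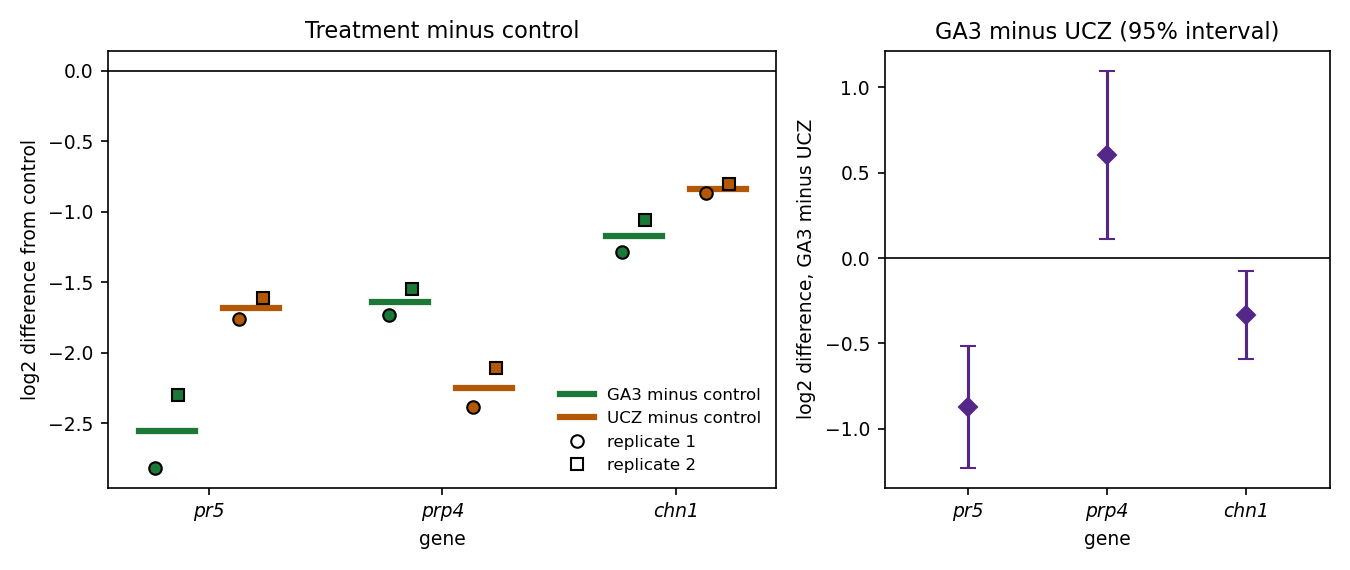
Left, log2 difference from control of each gene in GA3 and UCZ (line: difference of group means; circle and square: replicates 1 and 2). Right, log2 difference GA3 minus UCZ with its 95% interval from the fit; it lies below 0 for pr5 and chn1 and above 0 for prp4.

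The profiles of pr5 and chn1 over the 6 arrays were nearly the same. Their log2 signals correlated at r = 0.997, and each was the probe set most like the other among all 10573 kept. The profile of prp4 was less like them, at r = 0.809 with pr5 and 0.833 with chn1, and 735 and 607 other probe sets were more like prp4 than these genes were. These correlations describe 6 arrays of 3 groups, and the genes were chosen for being low in both treatments. They carry no test. A correlation above 0.9 was reached by 134 probe sets (1.27% of those kept) with pr5, by 140 (1.32%) with chn1 and by 265 (2.51%) with prp4.

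Among 710 other named genes, those most like pr5 were aprl1 (r = 0.971), nthr3 (0.963), pdrp1 (0.961), obf3.2 (0.938) and lhcb5 (0.929). Of these, pdrp1 carries the name of the regulatory protein of pyruvate phosphate dikinase, obf3.2 that of a bZIP transcription factor, and lhcb5, also on the leaf photosynthesis list, that of a light-harvesting protein of photosystem II. The first 3 were also the most like chn1 (r = 0.958 for aprl1, 0.945 for nthr3 and 0.939 for pdrp1), followed by sps1 (0.936), a sucrose phosphate synthase, and ss2 (0.928). The gene aprl1 averaged 533 in GA3, 700 in UCZ and 1157 in control, in the order of pr5 and chn1. Most like prp4 were Lsi1 (r = 0.979), a silicon transporter, me3 (0.969), an NADP-malic enzyme, lkrsdh1 (0.960), a lysine-degrading enzyme, pgr5 (0.956) and S6K (0.952), a kinase of ribosomal protein S6. Of these, me3 was also on the leaf photosynthesis list. It averaged 835 in GA3, 725 in UCZ and 1810 in control, in the order of prp4. The gene pgr5 averaged 182 in GA3, 60.4 in UCZ and 658 in control, with UCZ the lowest as for prp4.

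**Figure D3:**
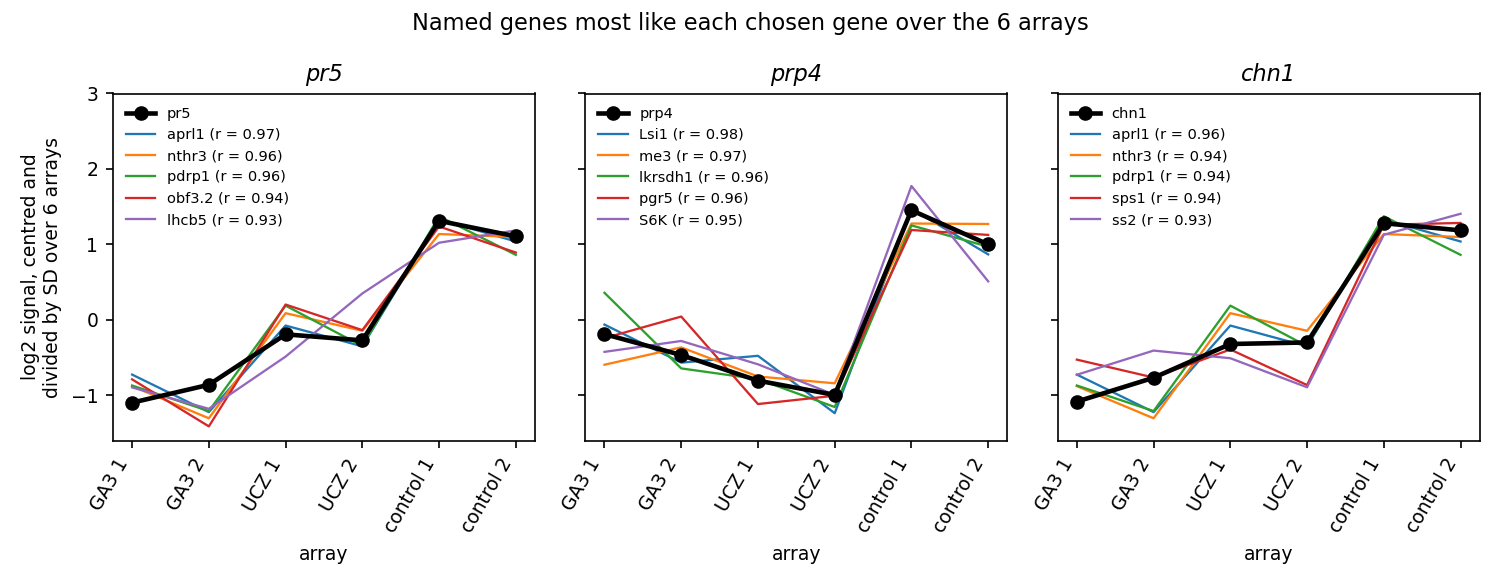
Log2 signal on the 6 arrays, centred and divided by its SD, for pr5, prp4 and chn1 (black) and the 5 named genes most like each (colours, with r over 6 arrays). For the genes in black, GA3 and UCZ lie below control, with GA3 below UCZ for pr5 and chn1 and above it for prp4.

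The PR and antimicrobial list held 5 other genes, all measured. By limma none of the 5 passed in GA3 against control, where 1.32% of all probe sets kept passed. A count of 0 is near that share. An unadjusted p under 0.05 was reached by 1 of the 5 and by 1282 of the 10573 kept. With the block 1 of the 5 passed, where 8.19% of all probe sets kept did. Without the block, 1 rose and 1 fell in UCZ against control, where 15.4% of all probe sets kept passed, 6.44% higher and 8.97% lower. With the block 1 was higher and 2 were lower in UCZ, where 34.6% of all probe sets kept passed. The median log2 difference of the 5 was 0.10 in GA3 and 0.07 in UCZ, against 0.0175 and −0.0263 for all probe sets kept. The PR gene prp2 had signals of 5063 and 4906 in GA3, 6263 and 5957 in UCZ, and 3566 and 2999 in control. Both treatments lay above control, the opposite side from prp4, and prp2 rose 1.86-fold in UCZ (log2 0.90, SE 0.113, adjusted p = 0.00368). In GA3 it differed by 0.61, short of the threshold at adjusted p = 0.0577 (0.00101 under the replicate block). GA3 minus UCZ was −0.29 for prp2 (adjusted p = 0.133; 0.0313 under the block), and it turned to 0.48 with poly-A control scaling. Under poly-A control scaling the UCZ difference of prp2 was 0.26 and did not pass (adjusted p = 0.535).

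The gene rip2, named for proteins that inactivate ribosomes, had signals of 336.5 and 362.1 in GA3, 114.4 and 103.8 in UCZ, and 294.6 and 316.7 in control. It fell in UCZ against control (log2 −1.36, SE 0.141, adjusted p = 0.00169) and differed by 0.18 in GA3 (adjusted p = 0.718), and GA3 minus UCZ was 1.55 (adjusted p = 0.00126). The gene sip1, which carries the synonym Zlp, had signals of 1072 and 761 in GA3, 539.7 and 452.7 in UCZ, and 996.6 and 710.5 in control. It was higher in GA3 than in UCZ (log2 0.85, SE 0.22, adjusted p = 0.044), a call that did not hold with median centring (adjusted p = 0.0539) or quantile normalization (0.0513), or without GA3 replicate 1, UCZ replicate 1 or UCZ replicate 2 (highest adjusted p 0.185). Against control sip1 differed by 0.10 in GA3 (adjusted p = 0.932) and by −0.75 in UCZ (adjusted p = 0.059, and 0.000265 with the block). The lipid-transfer protein genes PLTP and plt2 had log2 differences of −0.08 and 0.09 in GA3 against control and 0.07 and 0.16 in UCZ against control, none past the threshold.

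The other defence genes, grouped by pathway, moved in both directions. With the PR group, 27 of 31 listed genes passed the filter. In GA3 against control 2 of 27 passed (7.41%), both higher, where 1.32% of all probe sets did, and the replicate block gave 3 higher and 3 lower, where 8.19% did. In UCZ against control 9 of 27 passed (33.3%), 4 higher and 5 lower, where 15.4% of all probe sets did, and the block gave 6 higher and 9 lower, where 34.6% did. In GA3 against UCZ 9 of 27 passed (33.3%), 7 higher and 2 lower, where 13.9% of all probe sets did, and the block gave 11 higher and 4 lower, where 30.9% did. Whichever array was left out, fewer of the 27 passed in GA3 against UCZ and in GA3 against control. In UCZ against control fewer passed without any 1 of the UCZ or control arrays, and more without a GA3 array. In every fit that left out 1 array, fewer of all probe sets kept passed than with all 6 arrays. The median log2 difference over the 27 genes was 0.10 in GA3 and 0.005 in UCZ against control.

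Wound-related and protease inhibitor genes included the largest rise in GA3 on these lists. The gene piip1 had signals of 2648 and 3090 in GA3 against 1090 and 902 in control (log2 1.51, SE 0.146, adjusted p = 0.00341), and it was 861 and 776 in UCZ. The cystatin gene cpi2, an inhibitor of cysteine proteases, rose by 0.62 in GA3 (adjusted p = 0.0449) and did not pass in any of the 6 fits that left out 1 array (adjusted p 0.0702 to 0.252), nor with median centring (0.063) or poly-A control scaling (0.997). In UCZ, wip1, a wound-induced protease inhibitor, fell by 1.52 on the log2 scale (SE 0.113, adjusted p = 0.000437), and piip2 fell by 1.37 (SE 0.218, adjusted p = 0.00751; 0.0536 without control replicate 2). The gene piip2 had signals of 181 and 270 in GA3, 156 and 177 in UCZ, and 399 and 521 in control. It was lower on all 4 treated arrays than on either control array, as were the 3 chosen genes. Of the other genes on these lists, ACO31, 4CL and pal3 were too, and so was opr1, which did not pass the filter. The share of all probe sets with this pattern was not counted. For piip2 GA3 minus control was −0.99, short of the threshold at adjusted p = 0.092 (0.000469 under the block). Against UCZ, GA3 was higher for piip1 (1.79), wip1 (1.66) and cpi2 (0.47), with adjusted p of 0.000851, 0.000514 and 0.0294; the cpi2 call was lost in each fit that left out 1 array (0.0524 to 0.145) and with median centring (0.0782).

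Among genes of hormone and phenylpropanoid pathways, ACO31, an ACC oxidase of ethylene synthesis, fell by 1.62 in UCZ (SE 0.158, adjusted p = 0.00142) and had a GA3 difference of −0.70 (adjusted p = 0.0979; 0.00464 with the block). It was 754 and 886 in GA3, 429 and 419 in UCZ, and 1508 and 1184 in control, and GA3 minus UCZ was 0.92 (adjusted p = 0.0099; up to 0.0556 without GA3 replicate 2 or UCZ replicate 2). The ethylene list also held ACC1, which matched by its letters only. The gene 4CL, a 4-coumarate:CoA ligase of the phenylpropanoid pathway, fell by 0.82 in UCZ (adjusted p = 0.0123; up to 0.0792 without UCZ replicate 1 or control replicate 2). Its GA3 minus control difference was −0.38 (adjusted p = 0.352; 0.0396 under the block) and GA3 minus UCZ was 0.44 (adjusted p = 0.0963; 0.0065 under the block), while pal3, a phenylalanine ammonia-lyase at the start of that pathway, differed by −0.05 in UCZ and −0.18 in GA3, neither past the threshold. The lipoxygenase gene lox3 rose by 0.59 in UCZ (adjusted p = 0.0194), and GA3 minus UCZ was −0.85 for lox3 (adjusted p = 0.00552) and 0.66 for lox1 (adjusted p = 0.0414). With poly-A control scaling GA3 minus UCZ was −0.08 for lox3 and did not pass (adjusted p = 0.809). The call of lox3 in UCZ was lost without any one of the UCZ or control arrays (highest adjusted p 0.108), and that of lox1 without GA3 replicate 2 or either UCZ array (highest 0.163) and with median centring (0.0779). The other 4 oxylipin genes tested, aos1, aoc1, opr5 and opr8, did not pass in any of the 3 comparisons, except that opr5 and opr8 were higher in GA3 than in UCZ with poly-A control scaling (0.75 and 0.91, adjusted p = 0.0294 and 0.0111). The UCZ minus control difference of lox1 was −0.54 (adjusted p = 0.0704; 0.00852 under the block and 0.0464 with quantile normalization).

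Benzoxazinoids are indole-derived defence compounds of young maize, and 2 of the 4 genes on their list passed in UCZ against control, both higher, where 6.44% of all probe sets passed as higher. The other 2, the beta-glucosidase genes glu1 and glu2, differed from control in UCZ by −0.31 (adjusted p = 0.326) and 0.07 (adjusted p = 0.752). The first enzyme of the pathway, bx1, had signals of 2138 and 2466 in GA3, 3340 and 3636 in UCZ, and 2010 and 2045 in control. It rose by 0.78 in UCZ (SE 0.117, adjusted p = 0.00622), and bx6 rose by 0.51 (adjusted p = 0.0224; up to 0.112 without a UCZ or a control array). GA3 minus UCZ was −0.60 for bx1 (adjusted p = 0.0163; up to 0.104 without GA3 replicate 1 or either UCZ array). For bx6 it was −0.40, short of the threshold at adjusted p = 0.0545, but past it under the block (0.00701) and with median centring (0.043). For glu1 it was 0.51 (adjusted p = 0.136; 0.0101 under the block). Under poly-A control scaling the UCZ differences were 0.14 for bx1, −0.13 for bx6 and −0.05 for lox3, none past the threshold, and GA3 minus UCZ turned to 0.17 for bx1.

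**Figure D4:**
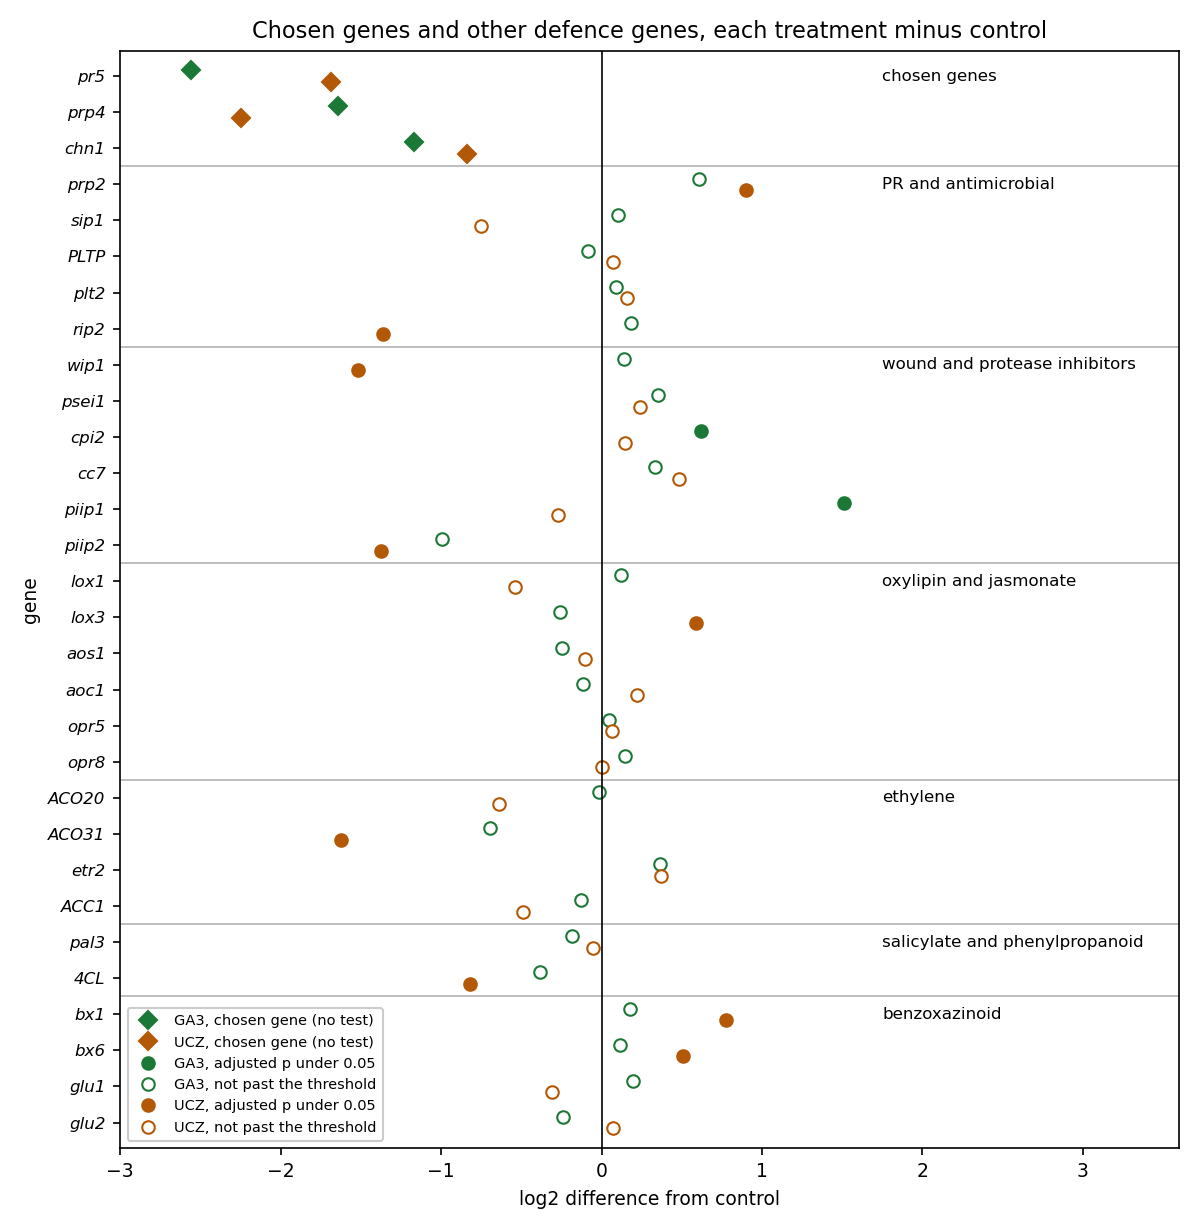
Log2 difference from control in GA3 (green) and UCZ (orange) of the 3 chosen genes (diamonds, no test) and the 27 other defence genes that passed the filter (circles, filled where adjusted p was under 0.05). Both treatments share the control arrays; the chosen genes are lower in both, and the circles lie on both sides of 0.

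Another 3 probe sets have IDs with the cluster number Zm.1085 of the chn1 probe set but no gene in the annotation, and they were looked at after the chosen genes. Zm.1085.2.A1_at had signals of 4898 and 5282 in GA3, 5887 and 5849 in UCZ, and 5239 and 5064 in control. Its GA3 minus control difference was −0.02 and its UCZ minus control difference 0.19, neither past the threshold (adjusted p = 0.973 and 0.212). Zm.1085.2.A1_a_at differed from control by −0.30 in GA3 (adjusted p = 0.28) and −0.01 in UCZ (adjusted p = 0.944). Zm.1085.4.A1_at was 2802 and 2145 in GA3, 3610 and 3339 in UCZ, and 4454 and 2971 in control. It differed from control by −0.57 in GA3 (adjusted p = 0.32, and 0.00567 with the block) and −0.07 in UCZ (adjusted p = 0.856). GA3 minus UCZ was −0.288 for Zm.1085.2.A1_a_at, −0.206 for Zm.1085.2.A1_at and −0.499 for Zm.1085.4.A1_at. None passed (adjusted p = 0.106, 0.191 and 0.156 in that order). With the block Zm.1085.2.A1_a_at (0.0327) and Zm.1085.4.A1_at (0.0042) passed and Zm.1085.2.A1_at did not (0.106), where 30.9% of all probe sets kept passed. The low signal in both treatments, seen with the annotated chn1 probe set, was thus not seen past the threshold with these probe sets, and whether they detect chn1 transcripts is not given in the annotation used here. The probe set Zm.15280.2.A1_at, which shares its cluster number with that of prp4, had signals of at most 12.4 and did not pass the filter.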

How the data were processed

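Total RNA of mesocotyls was labelled with biotin and hybridized to Affymetrix maize arrays. The deposited values are linear signal intensities, which the authors made with GCOS and MAS5 per the submitters' processing notes; no source used here gives the settings. Trimming 2% on each side left array means of 500.1 to 500.2. Of 17734 probe sets, 113 control probe sets were left out. The annotation names 1 gene for 1452 probe sets and none for 16168; symbols came from RefSeq synonyms (Zm-B73-REFERENCE-NAM-5.0, names only).

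Differences are on the log2(signal + 16) scale, and the brightest 60% (10573) were kept. limma 3.58.1 (R 4.3.3; lmFit, eBayes with trend) used all 6 arrays, with 3 residual and 4.52 prior degrees of freedom, Benjamini-Hochberg adjustment over the probe sets kept and two-sided tests at 0.05. Standard errors and intervals are those of this fit. The steps were tested on simulated data. Figures used matplotlib 3.10.9 in Python 3.11.15.

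The design text speaks of independent experiments and each group has replicates 1 and 2, so the numbers were taken to pair arrays; deviations from group means correlated at 0.755 (GA3 with UCZ), 0.664 (GA3 with control) and 0.724 (UCZ with control). A blocked fit on these numbers is an alternative, given in the counts per list and beside genes described singly whose call it changes.

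The 3 genes and the lists were chosen with earlier results of these data known. The gene table holds no protein descriptions, so list proteins were matched by maize symbols, a step added after the table was seen, with the brightest probe set per gene. Named were the 3 genes, all genes of the PR list, called genes of the other lists (up to 5 each), and the 5 named genes most correlated with each. Others named beside them, and the unannotated probe sets, were picked after their values were seen. Alternatives were median centring, quantile and poly-A control scaling, adding 1 or 64, no filter or the brightest 40%, other variance priors, only the 2 groups compared, the block, and leaving out each array. Sequences were not used here.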

Additional observations from a re-analysis of the deposited data

How the results depend on the processing

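The differences of pr5, prp4 and chn1 from control kept their sign under all alternatives run (17 each; 16 for prp4, which is not among the brightest 40%). GA3 minus control moved by more than the replicate spread to −1.04 for chn1 with poly-A control scaling and to −1.32 for prp4 with 64 added. UCZ minus control moved to −2.33 (pr5), −2.89 (prp4) and −1.48 (chn1) with poly-A control scaling, to −2.51 and −1.71 for prp4 with 1 and 64 added, and to −0.731 and −0.91 for chn1 with median centring and quantile normalization. GA3 minus UCZ of chn1 was reversed to 0.435 with poly-A control scaling, which also gave −0.104 for pr5 (no longer past the threshold) and 1.37 for prp4 (now past it); that scaling shifts all probe sets. With the replicate block the values stayed −0.334 for chn1 and 0.606 for prp4, now past the threshold; the spread shared by replicate numbers is removed there by construction. Leaving out 1 array gave −1.01 to −0.735 for pr5, −0.42 to −0.248 for chn1 and 0.459 to 0.752 for prp4; adjusted p ranged over all alternatives from 0.000223 to 0.753 for pr5, 0.0214 to 0.307 for chn1 and 0.000788 to 0.344 for prp4.

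Probe sets called were 1474 in GA3 against UCZ, 140 in GA3 against control and 1629 in UCZ against control. They were 3271, 866 and 3662 with the block and 6657, 78 and 4286 with poly-A control scaling, where the higher share was 99.7%, 52.6% and 0.56% against 54.6%, 36.4% and 41.8%; median centring gave 60.9% higher in UCZ against control. The brightest 40% gave 78 in GA3 against control. Leaving out 1 array gave 541 to 1154, 51 to 112 and 552 to 1546. Counts of the 27 other defence genes were 9, 2 and 9; the block gave 15, 6 and 15, and poly-A control scaling 15 in GA3 against UCZ. In GA3 against control the count was 1 with median centring, poly-A control scaling, no filter, the brightest 40%, the prior without trend, only the 2 groups compared, and each array left out (1 to 1). Leaving out 1 array gave 4 to 8 in GA3 against UCZ and 5 to 11 in UCZ against control. Where no cause is named, the cause was not tested. With 2 arrays a group, an exact test of 1 gene cannot go below p = 0.333. All calls rest instead on the limma model, which assumes normally distributed errors. It joins the spread of each probe set with a spread shared over probe sets.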
